A study of Mus musculus with 2 samples.

Results

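The genes described here are 34 genes of glycolysis and of the response to low oxygen, of 31053 genes in the count tables. They were chosen by symbol, and all 34 symbols were present, on 35 gene IDs because 2 IDs carry the symbol Aldoa. The second of these IDs held 0 UMIs in KO and 1 in WT over all cell barcodes. The 34 genes were followed in 2 single-cell RNA libraries of mouse dorsal skin, 1 from Chrna5-/- mice (KO) and 1 from wild-type mice (WT). Both genotypes were female C57BL/6 mice 6 to 8 weeks old whose shaved backs received 62.5 mg of 5% imiquimod cream on 6 days, with the skin taken on day 7. Imiquimod activates Toll-like receptor 7 and is widely used to inflame mouse skin as a model of psoriasis. Chrna5 codes for a subunit, alpha 5, of receptors for acetylcholine and nicotine. The KO line had been backcrossed to C57BL/6N for over 10 generations, while the extraction text names C57BL/6J. Experimental groups had 5 mice, per the labels, which leave unsaid how many animals went into a library and which part of Chrna5 was deleted. Every cell was therefore exposed to imiquimod, and skin treated with the cream base was not analysed here.

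Glycolysis splits glucose into pyruvate in the cytosol. Glucose transporters and hexokinases bring glucose in, phosphofructokinases commit it to the pathway, and the enzymes from aldolase to pyruvate kinase carry out the later steps that yield ATP. Lactate dehydrogenase turns pyruvate into lactate, which monocarboxylate transporters carry across the membrane. Most of these genes are targets of hypoxia-inducible factor 1, whose alpha subunit (Hif1a) is marked for destruction by prolyl hydroxylases (Egln1, Egln3) when oxygen is present. The same factor also induces genes outside glycolysis, among them Vegfa, Adm, Bnip3 and Ndrg1. The epidermis has no blood vessels of its own, and proliferating keratinocytes are known for a high rate of glycolysis.

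The KO library held 10886 barcodes and 123839924 UMIs, and the WT library 14557 barcodes and 147260653 UMIs. Cells were kept if they had 200 or more genes and no more than 10% of UMIs from mitochondrial genes, which left 10233 in KO and 13938 in WT, with medians of 6374 and 4603 UMIs. The libraries shared 49 barcode sequences (0.450% of KO and 0.337% of WT barcodes). Chrna5 gave 6 UMIs in the kept KO cells and 12 in the kept WT cells, too few to check the labels. Cells were gated 1 by 1 on marker genes of their type, none of which is among the 34. The keratinocyte gate held 3803 KO and 8003 WT cells, the fibroblast gate 2815 and 2378, and the monocyte and macrophage gate 748 and 850. Keratinocyte depth differed, with a median of 14728 UMIs in KO and 3270 in WT. With 1 library per genotype there is no replicate and no test, and each difference is one between these 2 libraries. Levels are UMIs per 1000000 UMIs of the gated cells of a library (CPM), and all intervals are exact 95% intervals that cover counting error only. A gene was measured in a gate where the 2 libraries together gave it at least 20 UMIs. It is called higher or lower where the ratio of KO over WT was at least 1.5-fold and its interval left out 1.

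In keratinocytes the genes of the lower part of glycolysis had lower levels in the KO library, while none of the 10 hypoxia response genes outside glycolysis was called lower. All 34 genes were measured, and 12 were lower and 1 was higher. Over all 15598 genes measured in this gate, 10.3% were lower and 12.9% were higher. With 10 genes, the absence of a lower hypoxia response gene is close to this share. The median log2 ratio was -0.19 over the 34 genes and 0.05 over all measured genes. The 12 lower genes were Gpi1, the 9 enzymes from aldolase to pyruvate kinase, Ldha and Slc16a3. None of the 5 hexokinase and phosphofructokinase genes was called, with ratios from 0.752 to 1.33.

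The promoters of 4 of the called genes are shown because hypoxia-inducible factor binds DNA through the core letters ACGTG or GCGTG. Each window runs from 250 bases before a start given by RefSeq to 50 after it, 5′ to 3′ on the strand of the gene, from RefSeq on GRCm38.p6, the build family of the files (mm10). Capitals mark ACGTG and GCGTG on either strand, so that CACGT and CACGC are the same cores read from the other strand, and CACGTG counts on both. Pgk1 lies on chromosome X at 106187100 to 106203699, Ldha on 7 at 46841475 to 46855627, Slc16a3 on 11 at 120948480 to 120960868, and Egln3 on 12 at 54178981 to 54203860. The Ldha and Slc16a3 windows lie within these spans, at starts downstream of the first base of the annotated gene, and Ldha has 2 RefSeq windows, of which the one shown holds the more cores. Pgk1 and Ldha were lower in KO keratinocytes, Slc16a3 had the lowest ratio, and Egln3 was the 1 gene that was higher.
Pgk1, chrX:106186850-106187149, plus strand: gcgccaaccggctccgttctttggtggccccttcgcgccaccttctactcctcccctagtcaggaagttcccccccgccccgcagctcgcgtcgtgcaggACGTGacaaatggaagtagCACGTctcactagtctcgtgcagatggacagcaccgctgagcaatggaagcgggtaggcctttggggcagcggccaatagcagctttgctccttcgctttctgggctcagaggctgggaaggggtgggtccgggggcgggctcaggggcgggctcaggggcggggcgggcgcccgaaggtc
Ldha, chr7:46845554-46845853, plus strand: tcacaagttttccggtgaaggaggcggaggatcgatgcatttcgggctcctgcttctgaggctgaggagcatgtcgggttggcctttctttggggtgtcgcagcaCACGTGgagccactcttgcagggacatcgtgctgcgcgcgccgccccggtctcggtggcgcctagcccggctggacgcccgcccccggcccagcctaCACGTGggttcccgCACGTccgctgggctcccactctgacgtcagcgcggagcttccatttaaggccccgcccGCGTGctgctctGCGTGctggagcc
Slc16a3, chr11:120948817-120949116, plus strand: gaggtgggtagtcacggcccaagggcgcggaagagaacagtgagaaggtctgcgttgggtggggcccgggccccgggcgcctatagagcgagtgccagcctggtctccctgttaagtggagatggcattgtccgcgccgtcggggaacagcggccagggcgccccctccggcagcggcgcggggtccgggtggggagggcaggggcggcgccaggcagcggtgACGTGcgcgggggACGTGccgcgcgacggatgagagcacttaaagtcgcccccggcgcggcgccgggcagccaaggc
Egln3, chr12:54203825-54204124, minus strand: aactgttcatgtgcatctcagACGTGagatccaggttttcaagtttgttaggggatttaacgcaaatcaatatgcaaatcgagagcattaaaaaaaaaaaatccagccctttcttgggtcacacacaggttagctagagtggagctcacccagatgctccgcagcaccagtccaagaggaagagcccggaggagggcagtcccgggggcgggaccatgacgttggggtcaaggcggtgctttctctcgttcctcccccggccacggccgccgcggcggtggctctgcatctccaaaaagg

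The Pgk1 window held 2 ACGTG cores, 150 and 131 bases before the start. The Ldha window shown held 5 ACGTG cores, of which 4 belong to 2 CACGTG palindromes, and 2 GCGTG cores. The other Ldha window, chr7:46846832-46847131, held 0 ACGTG and 2 GCGTG cores. The Slc16a3 window held 2 ACGTG cores, 27 and 14 bases before the start, and the Egln3 window held 1, 229 bases before it. RefSeq windows were found for 32 of the 34 genes, 46 windows in all, and Slc2a3 and Ndrg1 had none. ACGTG was in 54.3% of these windows, against 19.6% of all 32851 promoter windows of the same length. GCGTG was in 58.7% against 32.4%, and either core in 80.4% against 43.8%. The windows of the 34 genes had a median of 62.2% G and C, against 52.7% over all windows. Among windows of at least 60% G and C, ACGTG was in 19 of 26 windows of these genes (73.1%) and in 26.5% of 9690 windows. Some windows of the same gene overlap, so a core can count more than once. By gene, ACGTG was in a window of 22 of 32 genes (68.8%), against 21.8% of 27025 genes. The 34 genes were listed for glycolysis and the hypoxia response, so these shares describe the list and not the 2 libraries. Cores were present in windows of genes that were lower (Pgk1, Ldha), of 1 that was higher (Egln3), and of genes not called, such as Hif1a and Hk2. No core was in the Tpi1, Gpi1 or Eno2 window, which says only that these letters are not in those 300 bases.

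At the entry to the pathway, keratinocyte levels were close or moved either way. Slc2a1, the main glucose transporter of keratinocytes, stood at 34.9 CPM in KO and 46.5 CPM in WT (ratio 0.750, 0.715 to 0.787). Slc2a3, a second glucose transporter, was near 1 CPM in both libraries (0.839 in KO and 0.805 in WT). Hk2, the inducible hexokinase, was at 173.5 CPM in KO and 130.7 CPM in WT, a ratio of 1.33 (1.297 to 1.36) that is under the 1.5-fold limit. The phosphofructokinase subunits Pfkl, Pfkm and Pfkp and the regulators Pfkfb3 and Pfkfb4, which set the level of an activator of phosphofructokinase, had ratios from 0.752 to 1.27.

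From aldolase onwards the levels were lower in KO keratinocytes. Gapdh, which makes the first high-energy intermediate, was at 528.3 CPM in KO and 1035 CPM in WT (ratio 0.510, 0.505 to 0.516). Pgk1, the first step that makes ATP, was at 121.3 CPM in KO and 234.6 CPM in WT (ratio 0.517, 0.505 to 0.529). Eno1, the main enolase, was at 58.7 CPM in KO and 137.0 CPM in WT (ratio 0.428, 0.414 to 0.443). Pkm, pyruvate kinase, was at 173.3 CPM in KO and 373.8 CPM in WT (ratio 0.464, 0.454 to 0.473). These 4 genes and Slc16a3 had the lowest ratios of the 34. Both steps that make ATP were thus among them.

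The other enzymes of this stretch were lower by less. Aldoa was at 210.1 CPM in KO and 343.5 CPM in WT (ratio 0.611, 0.600 to 0.623). Aldoc, a second aldolase, was at 3.37 CPM in KO and 5.15 CPM in WT (ratio 0.654, 0.561 to 0.760). Tpi1, triose phosphate isomerase, was at 73.7 CPM in KO and 123.5 CPM in WT (ratio 0.597, 0.579 to 0.616). Pgam1, phosphoglycerate mutase, was at 103.1 CPM in KO and 155.5 CPM in WT (ratio 0.664, 0.646 to 0.682), just past the limit. Gpi1, which acts before phosphofructokinase, was also just past it, at 76.5 CPM in KO and 115.1 CPM in WT (ratio 0.665, 0.644 to 0.686). Eno2, the enolase known from neurons, had 47 UMIs in KO and 106 in WT (ratio 0.623, 0.432 to 0.887), and its ratio was 1.07 after every cell was thinned to 1000 UMIs. With every cell weighing the same, Gpi1, Aldoc, Tpi1 and Pgam1 were not called, and without the deepest 10% of cells Gpi1, Tpi1, Pgam1 and Ldha were not.

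At the pathway's exit, 1 gene of each pair was lower in KO keratinocytes and the other was not. Ldha, the lactate dehydrogenase subunit that favours lactate production, was at 199.4 CPM in KO and 352.5 CPM in WT (ratio 0.566, 0.555 to 0.576). Ldhb, the other common subunit, was at 89.1 CPM in KO and 93.8 CPM in WT (ratio 0.950, 0.921 to 0.980). Ldhb therefore made up 30.9% (30.3 to 31.5%) of the Ldha and Ldhb UMIs in KO and 21.0% (20.6 to 21.4%) in WT, in UMIs not divided by gene length. Slc16a3, the lactate exporter MCT4, gave 52 UMIs in KO and 294 in WT, which is 0.692 CPM and 2.79 CPM (ratio 0.249, 0.181 to 0.335). With cells thinned to 1000 UMIs the Slc16a3 ratio was 0.391 and was not called. Slc16a1, the transporter MCT1, was at 42.7 CPM in KO and 40.6 CPM in WT (ratio 1.05, 1.00 to 1.10). Pdk1, the kinase that shuts pyruvate dehydrogenase, had a ratio of 0.860 (0.790 to 0.936).

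Of the 10 hypoxia response genes outside glycolysis, 0 were lower and 1 was higher in KO keratinocytes, where 10.3% and 12.9% of all measured genes were. With 10 genes, both counts are close to these shares. Egln3, a prolyl hydroxylase that hypoxia-inducible factor itself induces, was at 22.2 CPM in KO and 12.9 CPM in WT (ratio 1.72, 1.60 to 1.85). Vegfa, the main growth factor of blood vessels, was at 57.6 CPM in KO and 39.5 CPM in WT (ratio 1.46, 1.40 to 1.52), just under the limit. Ero1l, an oxidase of the endoplasmic reticulum, was at 55.8 CPM in KO and 44.2 CPM in WT (ratio 1.26). Ndrg1, a differentiation and stress gene, was at 407.5 CPM in KO and 373.2 CPM in WT (ratio 1.09). Adm, the peptide hormone adrenomedullin, was at 29.8 CPM in KO and 29.5 CPM in WT (ratio 1.01, 0.957 to 1.07). Hif1a itself stood at 180.1 CPM in KO and 237.9 CPM in WT (ratio 0.757, 0.741 to 0.773), and Egln1, the main prolyl hydroxylase, at 38.9 CPM in KO and 46.7 CPM in WT (ratio 0.833). Bnip3, a mitophagy receptor, and the collagen prolyl hydroxylases P4ha1 and P4ha2 had ratios from 0.914 to 1.09. Hif1a protein is set mainly by its breakdown, which these RNA counts do not measure.

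**Figure D1:**
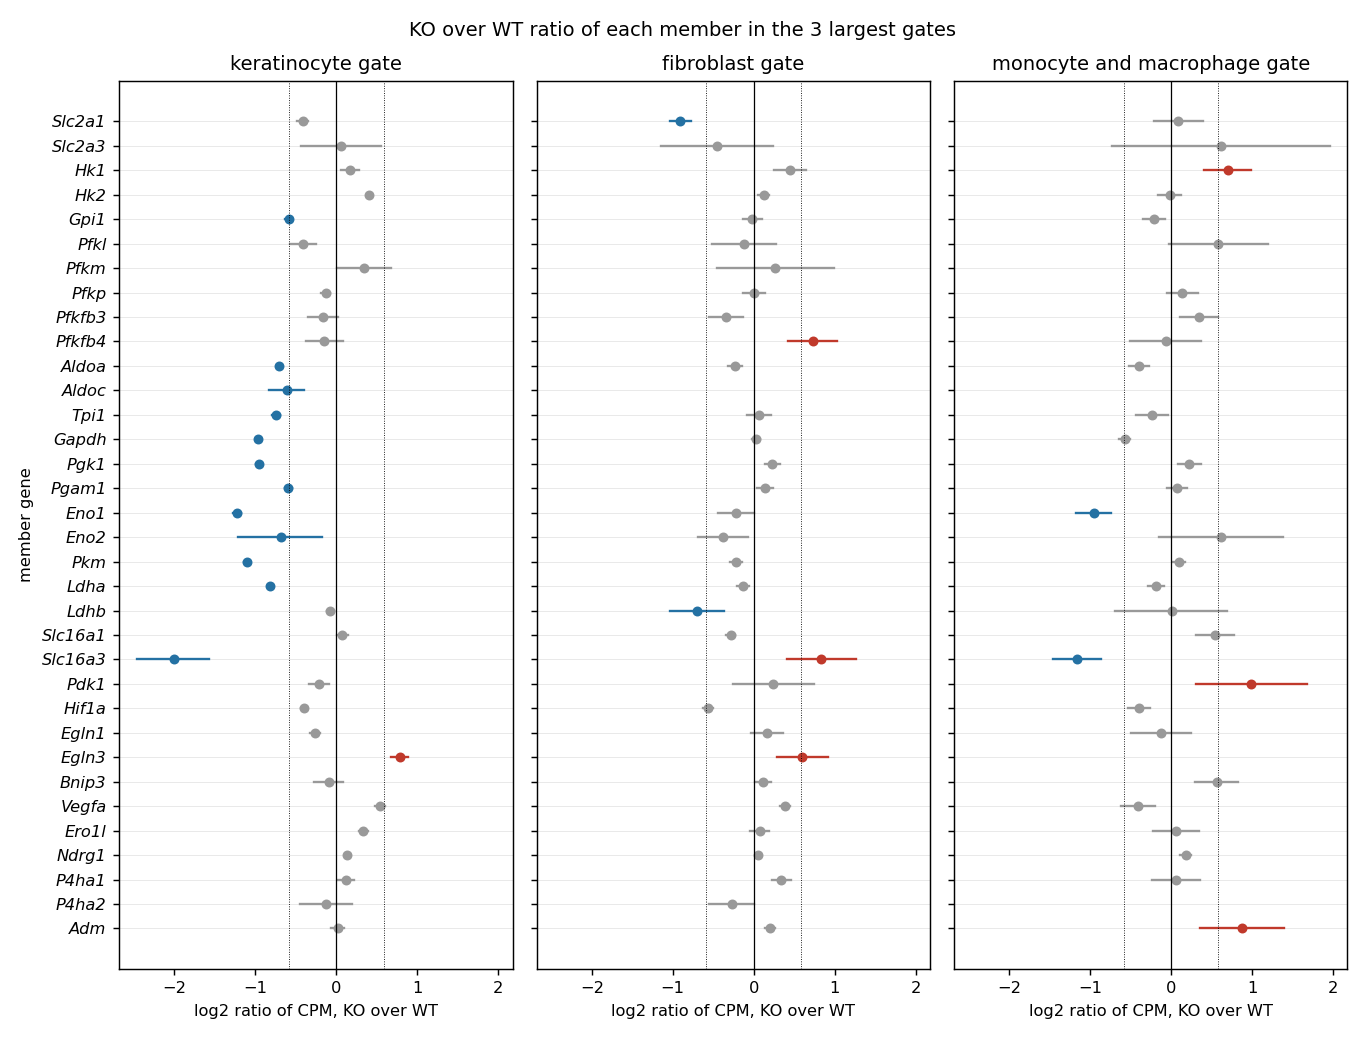
Log2 ratio of CPM, KO over WT, for each of the 34 genes (rows, in pathway order) in the keratinocyte, fibroblast, and monocyte and macrophage gates. Points are ratios and bars are 95% intervals of counting error, dotted lines mark 1.5-fold, red and blue are genes called higher and lower in KO, and a row with no point was not measured in that gate. The 12 blue points of the keratinocyte panel lie mostly between Gpi1 and Ldha, and the fibroblast panel has 2 blue and 3 red points.

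Summed over 15 enzyme genes, KO keratinocytes had 1703 CPM and WT keratinocytes 3043 CPM (ratio 0.560, 0.556 to 0.563). This enzyme sum runs from Gpi1 through the phosphofructokinases and pyruvate kinase to Ldha and Ldhb. It leaves out Hk1 and Hk2. Without Gapdh, which gave the most UMIs, the ratio was 0.585. A hypoxia sum over 10 genes was 649.6 CPM in KO and 584.8 CPM in WT (ratio 1.11, 1.10 to 1.12). It holds Pdk1 and the hypoxia response genes outside glycolysis except Hif1a, whose level in KO was below that in WT. Ndrg1 gave most of this sum, at 407.5 CPM in KO and 373.2 CPM in WT. Without Ndrg1 the ratio was 1.14 (1.12 to 1.17). Because depth differed, the sums were also taken within bins of cell depth. The enzyme ratio was 0.752 in cells of 500 to 1500 UMIs, 0.669 up to 5000, 0.739 up to 15000, 0.614 up to 40000, and 0.502 in deeper cells. In the deepest bin the enzymes reached 1831 CPM in KO and 3651 CPM in WT. The hypoxia sum had ratios from 0.984 to 1.21 over the same bins, and from 1.07 to 1.40 without Ndrg1. The enzyme sum was thus lower in KO in each of the 5 bins, and most so among the deepest cells.

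Among keratinocytes of at least 5000 UMIs, the enzyme share was lower in KO at low, middle and high percentiles of cells alike. These cells numbered 2732 of 3803 in KO and 3572 of 8003 in WT, so most WT keratinocytes are not described here. In these the 15 genes of the enzyme sum took a median of 14.4 UMIs per 10000 in KO and 22.8 in WT. The lowest decile ended at 8.13 in KO and 11.6 in WT, and the highest began at 24.97 in KO and 43.7 in WT. The upper quartile of KO cells (19.1) lay below the WT median. Fewer transcripts per cell and a different mix of cells cannot be told apart in these percentiles. For the 10 genes of the hypoxia sum (with Pdk1, without Hif1a) the medians were 5.87 per 10000 in KO and 5.42 in WT. Without Ndrg1 they were 2.03 in KO and 1.74 in WT.

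**Figure D2:**
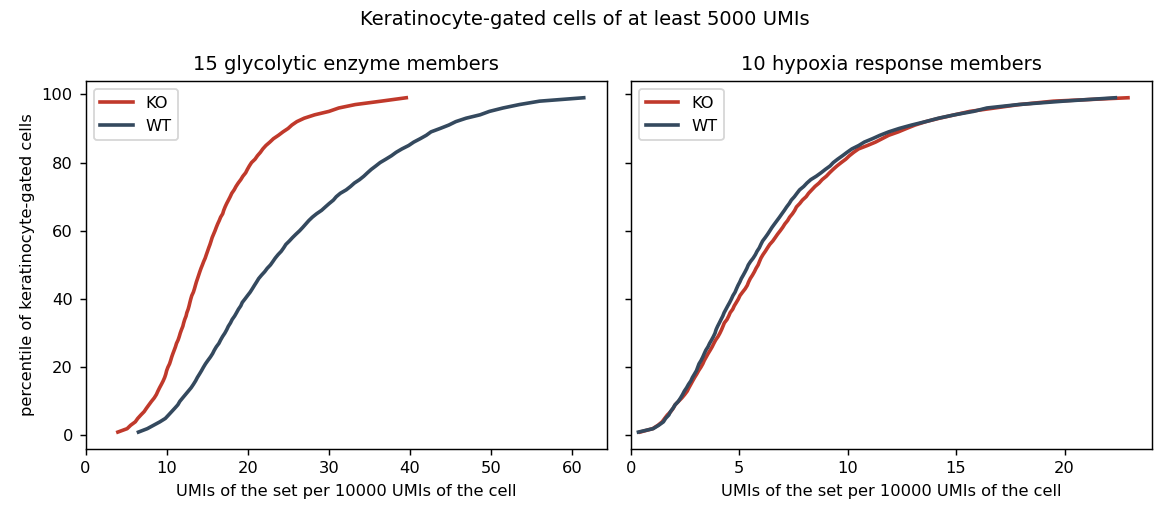
Percentiles of keratinocyte-gated cells of at least 5000 UMIs (vertical axis) against UMIs of a gene set per 10000 UMIs of the cell (horizontal axis), for KO and WT. The left panel has the 15 genes of the enzyme sum (Gpi1 to Ldhb). The right panel has the 10 genes of the hypoxia sum (with Pdk1, without Hif1a). The enzyme curves lie apart, with medians of 14.4 in KO and 22.8 in WT, and the hypoxia curves lie close, with medians of 5.87 and 5.42.

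The lower enzyme levels were present in each keratinocyte sub-gate. Keratinocytes were split into cells rich in hair follicle and sebaceous gland markers (633 KO and 528 WT cells), cycling cells (160 and 728), suprabasal cells (753 and 1891) and basal cells (2257 and 4856). The enzyme sum had a ratio of 0.591 in basal, 0.647 in suprabasal, 0.528 in cycling, and 0.565 in follicle and sebaceous cells. Pkm had ratios from 0.450 to 0.529 over the 4 sub-gates, and Gapdh from 0.495 to 0.599. Eno1 was at 41.5 CPM in KO and 109.7 CPM in WT basal cells (ratio 0.378), and at 105.7 CPM in KO and 163.3 CPM in WT suprabasal cells (ratio 0.647). The counts of lower genes were 11 of 34 in basal, 6 of 33 in suprabasal, 10 of 32 in cycling, and 10 of 31 in follicle and sebaceous cells, where 9.81%, 7.51%, 7.68% and 6.88% of all measured genes were lower. The counts of higher genes were 2, 2, 2 and 1, where 11%, 13.8%, 12.9% and 11.8% were higher. The split of basal from suprabasal is a range and not a boundary, since 419 KO cells (13.9%) and 1522 WT cells (22.6%) lay near it, at 40 to 60% suprabasal marker UMIs.

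Egln3 and Vegfa differed among the sub-gates. Egln3 was at 17.0 CPM in KO and 7.19 CPM in WT basal cells (ratio 2.37, 2.08 to 2.69), and at 28.3 CPM in KO and 10.9 CPM in WT cycling cells (ratio 2.595, 2.12 to 3.18). In follicle and sebaceous cells it was at 27.0 CPM in KO and 31.1 CPM in WT (ratio 0.867, 0.761 to 0.989). Vegfa was at 46.5 CPM in KO and 26.4 CPM in WT suprabasal cells (ratio 1.76, 1.55 to 2.00), at 74.9 and 49.0 CPM in basal cells (ratio 1.53), and at 24.8 and 14.5 CPM in follicle and sebaceous cells (ratio 1.71). Its ratio of 1.39 in cycling cells was under the limit.

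**Figure D3:**
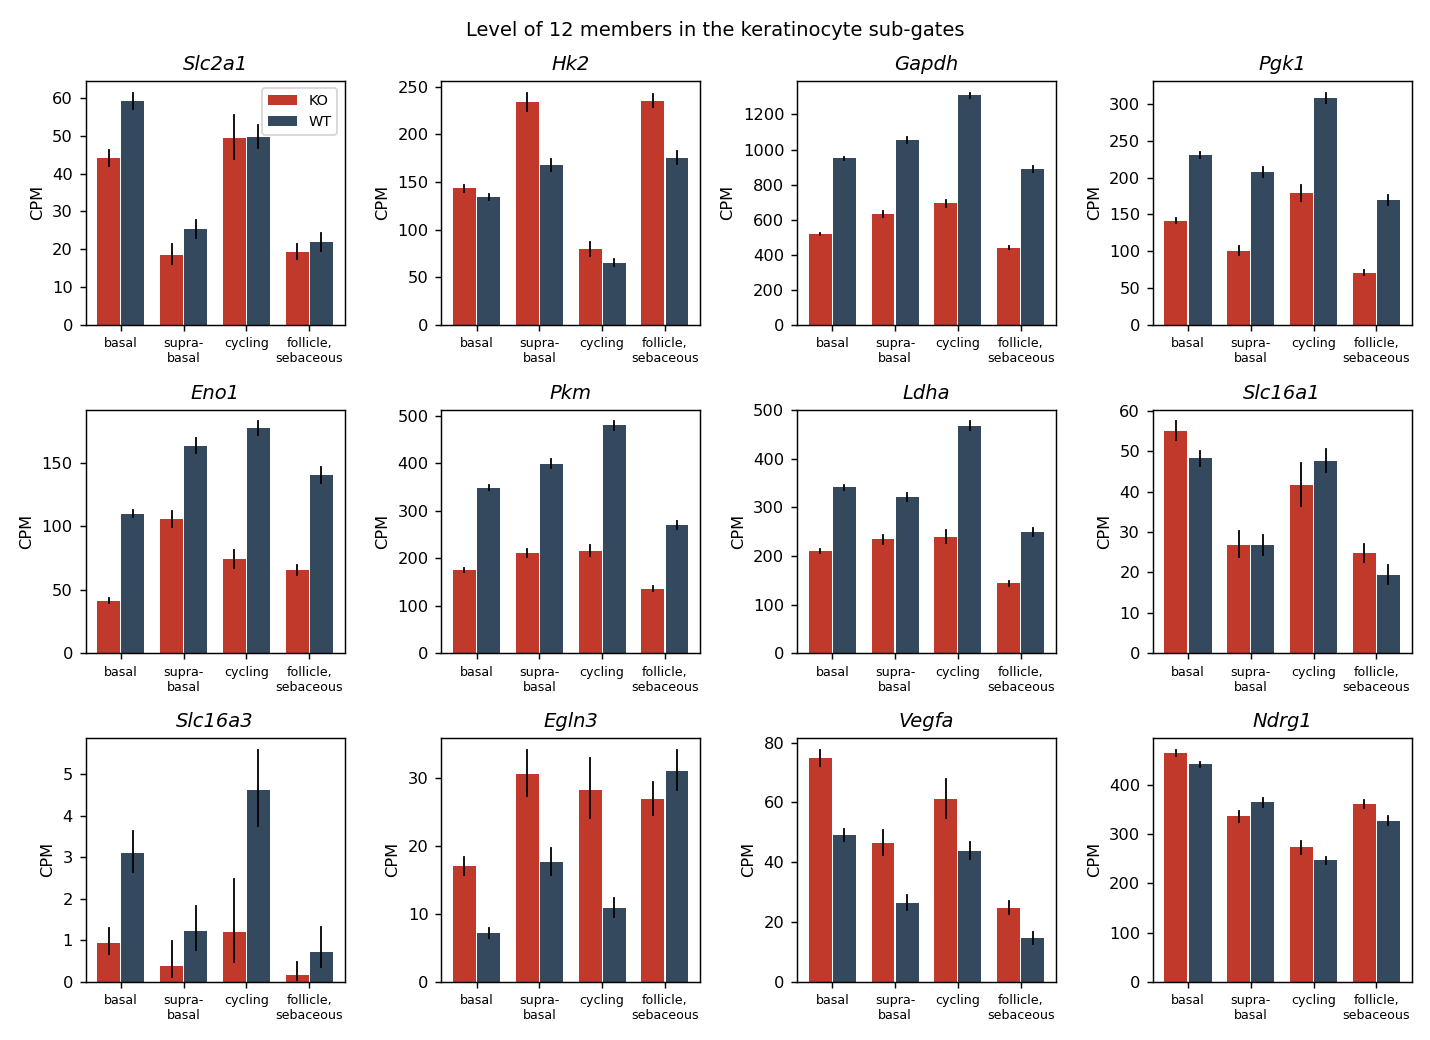
Level in CPM (vertical axes, from 0) of 12 of the 34 genes in the 4 keratinocyte sub-gates, KO in red left of WT in dark blue. Bars are levels and lines are 95% intervals of counting error. Gapdh, Pgk1, Eno1, Pkm and Ldha stand lower in KO in all 4 sub-gates, and Vegfa stands higher in KO in all 4.

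Within each library, suprabasal and basal cells were also compared, and the counts of higher and lower genes were near or below the shares over all measured genes, apart from the 7 that were higher in KO. In suprabasal against basal cells, 2 of the 34 genes were higher by 1.5-fold or more in both libraries and 5 were lower. In KO 7 of 34 and in WT 3 of 34 were higher, where 13.7% and 9.9% of all measured genes were, and in KO 5 and in WT 7 were lower, where 20.8% and 22.5% were. The 2 higher genes were Aldoc (ratio 2.98 in KO and 2.92 in WT) and Egln3 (1.80 in KO and 2.45 in WT). The 5 lower ones were the glucose transporters Slc2a1 (0.421 in KO and 0.426 in WT) and Slc2a3, the lactate transporter Slc16a1 (0.488 in KO and 0.553 in WT), P4ha1 (0.231 in KO and 0.308 in WT) and Vegfa (0.621 in KO and 0.540 in WT). Slc2a3 had only 4 suprabasal UMIs in KO (ratio 0.301, 0.0790 to 0.818) and 9 in WT (ratio 0.386, 0.169 to 0.779). Slc2a1 and 1 transporter of lactate were thus at lower levels above the basal layer, as was Slc2a3 on those few UMIs. Eno1 was higher in suprabasal than in basal cells by 2.55-fold in KO, while in WT it was not called.

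In cycling against basal cells, 3 genes were higher in both libraries and 5 were lower. Eno1 was higher by 1.78-fold in KO and 1.61-fold in WT, Egln1 by 1.81-fold and 1.64-fold, and Egln3 by 1.66-fold and 1.52-fold. Hk2 was lower, at 79.7 CPM in cycling and 143.2 CPM in basal KO cells, and at 65.2 and 133.7 CPM in WT cells. Ndrg1 was lower too, at 273.5 CPM in cycling and 465.9 CPM in basal KO cells, and at 247.0 and 442.4 CPM in WT cells. Aldoc, Pfkfb4 and P4ha1 were the other 3. In KO 3 and in WT 3 genes were higher (13.1% and 10.2% of all measured genes were), and in KO 5 and in WT 9 were lower (11.1% and 13.9%).

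Cells of the follicle and sebaceous gland differed most from basal cells. Of the 34 genes, 2 were higher and 10 were lower in both libraries. With these included, 4 were higher and 12 lower in KO, and 4 and 14 in WT. Of all measured genes, 13.5% were higher and 35.5% lower in KO, and 13.2% and 37.4% in WT, so the share of lower genes was close to that background. The higher genes were Aldoc (2.33 in KO and 3.39 in WT) and Egln3 (1.59 in KO and 4.33 in WT). Vegfa was at 24.8 CPM in follicle and sebaceous and 74.9 CPM in basal KO cells, and at 14.5 and 49.0 CPM in WT cells. P4ha1, which is needed for stable collagen, was at 6.15 CPM in follicle and sebaceous and 27.7 CPM in basal KO cells, and at 5.63 and 24.7 CPM in WT cells. Hk2 was higher by 1.64-fold in KO and was not called in WT.

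In fibroblasts the lower part of glycolysis was at nearly the same level in both libraries. Of 33 measured genes, 2 were lower and 3 were higher in KO, where 6.62% and 13.4% of all 12870 measured genes were. The median log2 ratio was 0.05 over these genes and 0.10 over all measured genes. Slc2a1 was lower, at 41.7 CPM in KO and 78.1 CPM in WT (ratio 0.533, 0.488 to 0.583). Ldhb was lower, at 6.70 CPM in KO and 10.9 CPM in WT (ratio 0.617, 0.488 to 0.777). Pfkfb4 was higher, at 13.7 CPM in KO and 8.26 CPM in WT (ratio 1.66, 1.35 to 2.04).

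Slc16a3 and Egln3 were the other 2 higher genes in KO fibroblasts. Slc16a3 had 134 UMIs in KO and 72 in WT (7.24 and 4.07 CPM, ratio 1.78, 1.33 to 2.40), and the ratio was 5.91 with cells thinned to 1000 UMIs. Egln3 was at 11.7 CPM in KO and 7.69 CPM in WT (ratio 1.52, 1.22 to 1.89), and that call ended under 6 of 13 other ways of counting, among them scaling by the median ratio of all genes (1.42). The enzyme sum was 1200 CPM in KO and 1235 CPM in WT (ratio 0.972, 0.954 to 0.990). Gapdh was at 354.0 CPM in KO and 347.3 CPM in WT (ratio 1.02), and Pgk1 at 116.1 CPM in KO and 99.0 CPM in WT (ratio 1.17). Hif1a was at 196.7 CPM in KO and 291.6 CPM in WT (ratio 0.674), just short of the limit, and Vegfa at 243.0 CPM in KO and 185.8 CPM in WT (ratio 1.31).

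When free RNA was estimated from markers of other cell types and subtracted, the Ldhb ratio in fibroblasts was 1.45, on the other side of 1. Free RNA was estimated at 4.44% of fibroblast UMIs in KO and 11.4% in WT. Ldhb was at 89.1 CPM in KO and 93.8 CPM in WT keratinocytes, far above its fibroblast level. Keratinocyte markers in the fibroblast gate summed to 373.3 CPM in KO and 713.8 CPM in WT. Of these 12 markers, 8 were lower, 1 was higher and none was at 0. Erythroid markers summed to 9.68 CPM in KO and 420.1 CPM in WT. The fibroblasts of the libraries also fell into different clusters, 1912 KO and 90 WT cells in the first and 34 KO and 1834 WT cells in the second of 4. The part of either in the fibroblast ratios was not tested.

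In monocytes and macrophages 2 of 30 measured genes were lower and 3 were higher in KO, where 8.24% and 10.8% of all 10502 measured genes were. Eno1 was lower, at 48.3 CPM in KO and 93.9 CPM in WT (ratio 0.515, 0.444 to 0.595). Slc16a3 was lower, at 24.6 CPM in KO and 54.8 CPM in WT (ratio 0.448, 0.364 to 0.547), and it stayed past the limit under all 13 other ways of counting, with 0.280 the lowest. Slc16a1 stood at 57.3 CPM in KO and 39.3 CPM in WT (ratio 1.46, 1.24 to 1.72), so that Slc16a3 gave 126 of the 420 UMIs of the 2 transporters in KO and 430 of 738 in WT.

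The 3 higher genes in KO macrophages were Hk1, Pdk1 and Adm. Hk1, the constitutive hexokinase, was at 39.9 CPM in KO and 24.6 CPM in WT (ratio 1.62, 1.33 to 1.99). Pdk1 had 44 UMIs in KO and 34 in WT (8.57 and 4.34 CPM, ratio 1.98, 1.24 to 3.19). Adm had 72 UMIs in KO and 60 in WT (14.03 and 7.65 CPM, ratio 1.83, 1.28 to 2.63). None of these 3 was called after each cell was thinned to 1000 UMIs, where the Adm ratio was 3.20. Gapdh was at 577.9 CPM in KO and 861.3 CPM in WT (ratio 0.671, 0.642 to 0.701), a little short of the limit. Pkm was at 486.2 CPM in KO and 453.9 CPM in WT (ratio 1.07). In this gate keratinocyte markers summed to 312.0 CPM in KO and 620.7 CPM in WT, with 8 of 12 lower. Neutrophil markers summed to 94.3 and 192.5 CPM, with 2 of 9 lower, 1 higher, and Ly6g and Camp at 0 in KO. Their part in the macrophage ratios was not tested. The enzyme sum had a ratio of 0.852 (0.833 to 0.872), and 0.946 without Gapdh.

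The other gates with at least 50 cells in each library were T and NK cells (502 KO and 195 WT), vascular endothelial cells (148 and 64), lymphatic endothelial cells (132 and 70) and melanocytes (81 and 75). They are small, and many cells lay within 25% of a gate: 113 KO and 175 WT for T and NK cells, 85 and 97 for vascular, 29 and 70 for lymphatic, and 19 and 51 for melanocytes. In T and NK cells 2 of 29 measured genes were lower and 4 higher, where 3.64% and 9.49% of all measured genes were. The 2 lower genes were Ldha, at 323.9 CPM in KO and 517.7 CPM in WT (ratio 0.626, 0.553 to 0.708), and Eno1, at 72.2 CPM in KO and 114.2 CPM in WT (ratio 0.632, 0.485 to 0.829). Pfkfb4 had 26 UMIs in KO and 3 in WT (ratio 3.34, 1.02 to 17.2). Bnip3 had 73 UMIs in KO and 12 in WT (ratio 2.34, 1.26 to 4.74). Hk2 was at 159.8 CPM in KO and 75.7 CPM in WT (ratio 2.11, 1.60 to 2.82), and Vegfa had a ratio of 1.70. T cells are known to raise Ldha and Hk2 on activation, and here the 2 genes stood on opposite sides. Keratinocyte markers in this gate summed to 713.7 CPM in KO and 1227 CPM in WT. Their part in the T and NK ratios was not tested.

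In vascular endothelial cells 3 of 28 measured genes were lower and 6 higher, where 12.8% and 11.6% of all measured genes were. Eno1 had 22 UMIs in KO and 40 in WT (16.2 and 51.7 CPM, ratio 0.314, 0.177 to 0.540). Aldoa and Ndrg1 had ratios of 0.623 and 0.621. Slc16a1 had 50 UMIs in KO and 9 in WT (ratio 3.17, 1.54 to 7.32), Slc2a3 had 22 and 4 (ratio 3.14, 1.06 to 12.5), and Hk1 had 145 and 41 (ratio 2.02, 1.42 to 2.93). Vegfa, P4ha1 and Pgk1 had ratios of 1.94, 1.90 and 1.58. Erythroid markers in this gate summed to 1181 CPM in KO and 78.9 CPM in WT, with 4 of 5 higher and Alas2 at 0 in WT. Pericyte markers summed to 373.7 CPM in KO and 122.8 CPM in WT, with 4 of 8 higher, 1 lower and none at 0. Keratinocyte markers summed to 256.5 CPM in KO and 491.3 CPM in WT, with 4 of 12 lower and none at 0. Monocyte and macrophage markers summed to 39.8 CPM in KO and 126.7 CPM in WT, with 2 of 11 lower and Csf1r and Ms4a7 at 0 in both. The part of these lists in the vascular ratios was not tested.

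In lymphatic endothelial cells 1 of 26 measured genes was lower and 2 were higher, where 5.49% and 9.16% of all measured genes were. Adm, which is known to promote growth of lymphatic vessels, had 80 UMIs in KO and 63 in WT (52.7 and 152.7 CPM, ratio 0.345, 0.245 to 0.488). Hk1 was at 145.0 CPM in KO and 65.4 CPM in WT (ratio 2.22, 1.48 to 3.44), and Hk2 had a ratio of 1.85 (1.09 to 3.36). In melanocytes 3 of 19 measured genes were lower and none was higher, where 4.86% and 7.74% of all measured genes were. They were Ldhb (8 UMIs in KO and 27 in WT, ratio 0.319, 0.125 to 0.723), Gpi1 (19 and 41, ratio 0.500, 0.274 to 0.880) and Gapdh (93 and 174, ratio 0.576, 0.443 to 0.745). Eno1 had a ratio below 1 in all 7 gates. It was lower by the call in 4 of them: keratinocytes, macrophages, T and NK cells, and vascular endothelium. Keratinocyte markers summed to less in KO than in WT in each of the other gates compared. They were at 233.3 CPM in KO and 889.4 CPM in WT lymphatic cells, and at 503.0 and 1099 CPM in melanocytes. Their part in the Eno1 ratios and in the melanocyte calls was not tested.

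Across cell types, 20 of the 34 genes had the same highest of 10 gates in both libraries, but only 7 of these with intervals apart in both. Among the 3 largest gates, 8 genes had their highest level in keratinocytes in both libraries, 13 in fibroblasts and 8 in macrophages. The first 2 intervals were apart in both libraries for 6, 11 and 6 of them. The 8 of keratinocytes were Aldoa, Aldoc, Tpi1, Eno1, Ldhb, Pdk1, Egln1 and Egln3. The 13 of fibroblasts included Slc2a1, Hk2, Slc16a1, Hif1a and 7 more hypoxia response genes (Adm, Bnip3, Ero1l, Ndrg1, P4ha1, P4ha2 and Vegfa), besides Eno2 and Pfkm. The 8 of macrophages were Hk1, Gpi1, Pfkp, Pfkfb3, Pfkfb4, Pgam1, Pkm and Slc16a3. Gapdh, Pgk1, Ldha, Pfkl and Slc2a3 had different highest gates in the libraries, and for the first 3 that was macrophages in KO and keratinocytes in WT.

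Some of these levels differed by far between gates. Adm was at 248.0 CPM in KO and 215.3 CPM in WT fibroblasts, and at 29.8 and 29.5 CPM in keratinocytes. Bnip3 was at 105.0 CPM in KO and 96.9 CPM in WT fibroblasts, and at 5.67 and 6.05 CPM in keratinocytes. Slc16a1 was at 303.7 CPM in KO and 369.9 CPM in WT fibroblasts, and the next highest was mast and basophil cells in KO, at 110.9 CPM on 10 UMIs. Pfkfb3, known to drive the sprouting of endothelial cells, was at 171.0 CPM in KO and 169.4 CPM in WT vascular cells and at 127.9 and 128.4 CPM in lymphatic cells. In keratinocytes it was at 5.31 CPM in KO and 5.97 CPM in WT. Endothelial cells also differed in their hexokinase, since Hk2 made up 18.1% of Hk1 and Hk2 UMIs in KO and 34.9% in WT vascular cells, and 91.9% and 90.5% in keratinocytes. Hif1a was highest in T and NK cells, at 466.4 CPM in KO and 594.7 CPM in WT, although in WT its interval met that of vascular cells (530.1 CPM).

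**Figure D4:**
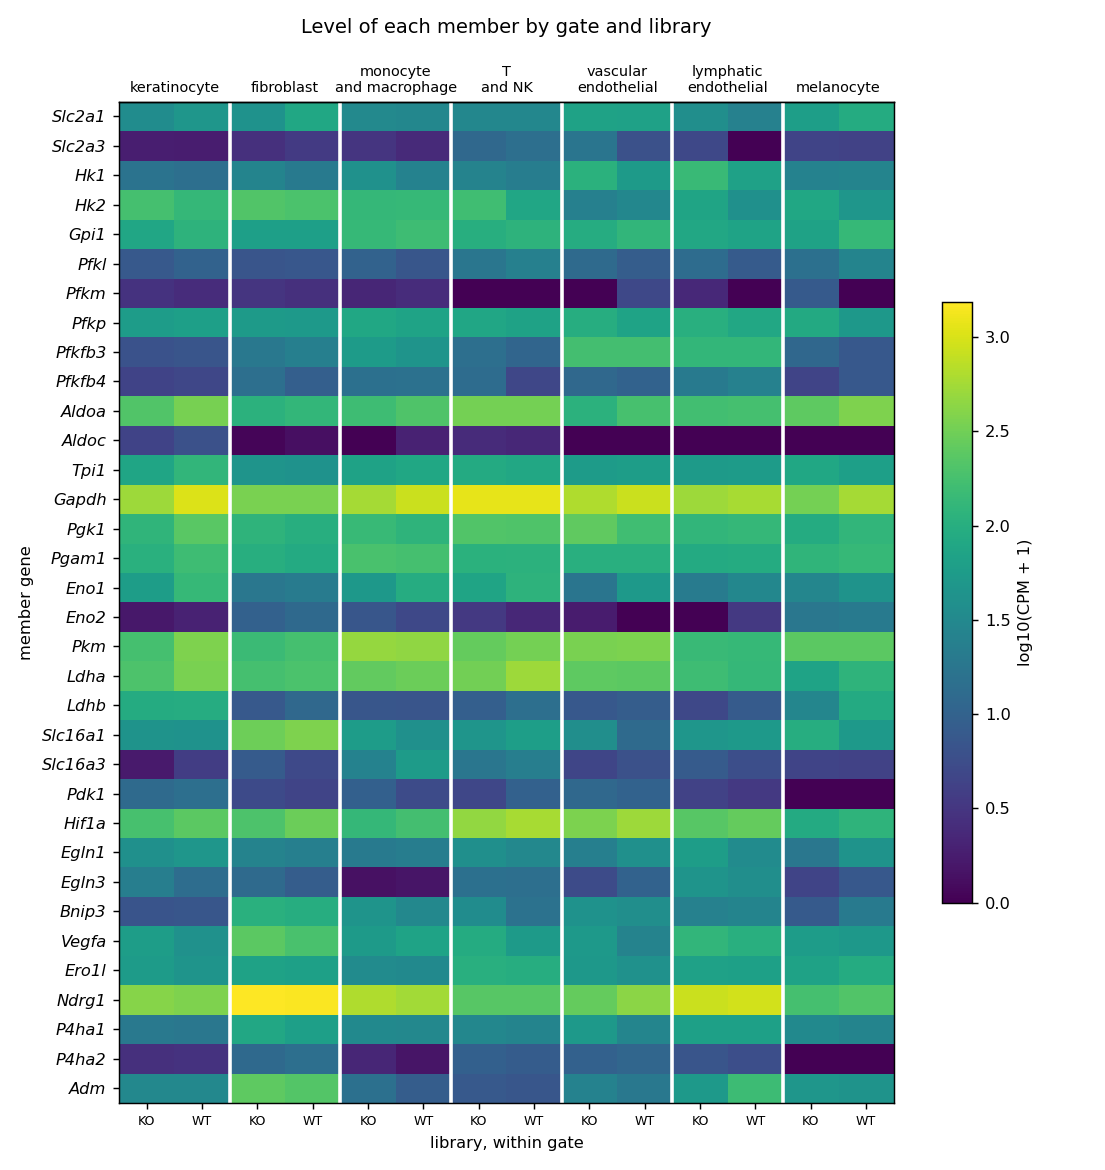
Level of each of the 34 genes (rows) as log10(CPM + 1) in the 7 gates with at least 50 cells per library, KO left of WT within each gate. Slc16a1, Vegfa and Adm are brightest in fibroblasts, Pfkfb3 in the 2 endothelial gates, and Aldoc in keratinocytes.

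The 3 gates under 50 cells in a library add levels only. Mast and basophil cells (46 KO and 37 WT) had Ero1l at 598.6 CPM in KO and 932.2 CPM in WT, on 54 and 51 UMIs, above every other gate. Schwann cells (150 and 37) had Bnip3 at 112.6 CPM in KO and 98.0 CPM in WT. Pericytes and smooth muscle cells (165 and 40) had Aldoa at 335.4 CPM in KO and 340.6 CPM in WT.

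Other genes of the same pathways were read in keratinocytes, where 10.3% of all measured genes were lower and 12.9% were higher. Of 23 measured other glycolysis genes, 6 were lower and 1 was higher in KO. The one with the most UMIs, Bsg, the chaperone of the lactate transporters, was at 182.9 CPM in KO and 249.7 CPM in WT (ratio 0.733). The lowest ratio was that of Slc2a4 (0.314, at 0.333 CPM in KO and 1.06 CPM in WT), and Gpd1, glycerol-3-phosphate dehydrogenase, was the higher one (2.72, at 3.84 CPM in KO and 1.41 CPM in WT). Of 28 genes of pyruvate dehydrogenase and the TCA cycle, 7 were lower and 0 were higher, with Suclg2 lowest (0.557) and Mdh2, with the most UMIs, at 148.1 CPM in KO and 218.0 CPM in WT (ratio 0.679). Of 8 genes of the pentose phosphate pathway, 1 was lower, transketolase (Tkt), at 78.4 CPM in KO and 142.1 CPM in WT (ratio 0.552). Pgls, with the most UMIs of the 8, had a ratio of 0.845.

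Of 44 other hypoxia response genes, 11 were lower and 7 were higher in KO keratinocytes, where 10.3% and 12.9% of all measured genes were. The share of lower genes was above this background, and that of higher genes was close to it. Mif, a cytokine, was at 461.4 CPM in KO and 811.7 CPM in WT (ratio 0.569), and Trf had the lowest ratio (0.381). Ero1lb had the largest ratio (2.05), at 2.80 CPM in KO and 1.36 CPM in WT. Of 15 regulators of hypoxia-inducible factor, 1 was higher, the coactivator Ep300 (1.55), and Rack1 had a ratio of 0.997. Of 17 regulators of growth, 4 were higher and 0 were lower, among them Myc at 221.8 CPM in KO and 118.2 CPM in WT (ratio 1.88) and Mycn (3.99). Npm1, with the most UMIs, had a ratio of 0.866. Myc is known as an inducer of glycolytic enzymes.

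Markers of the inflamed epidermis had a median log2 ratio below 0 in every gate compared. Of 10 activation and wound genes of keratinocytes, 8 were lower in KO keratinocytes and 0 were higher, with a median log2 ratio of -2.52. S100a8, an alarmin, was at 273.7 CPM in KO and 6707 CPM in WT (ratio 0.0408), and Krt6b had the lowest ratio (0.0334). Krt17 had a ratio of 1.17. In fibroblasts 9 of the 10 were lower with a median of -3.96. In lymphatic endothelial cells all 7 measured were lower with a median of -2.64. Keratinocyte markers were present in both gates, at 373.3 CPM in KO and 713.8 CPM in WT fibroblasts, and at 233.3 and 889.4 CPM in lymphatic cells. How far the counts of activation and wound genes in these gates came from free RNA was not tested. The enzyme sum had ratios of 0.972 in fibroblasts and 0.986 in lymphatic cells. In the keratinocyte gate all 8 markers of cycling cells were lower in KO, at a sum of 124.8 CPM in KO and 288.2 CPM in WT. Of 12 markers of the follicle and sebaceous gland, 7 were higher and 1 was lower, at a sum of 22284 and 12367 CPM. The 12 keratinocyte markers summed to 15464 CPM in KO and 18523 CPM in WT, with 2 lower and 1 higher. The 5 erythroid markers summed to 17.9 CPM in KO and 237.1 CPM in WT, with 4 lower, the 11 monocyte and macrophage markers to 33.1 and 76.4 CPM, with 9 lower, and the 8 fibroblast markers to 77.8 and 168.3 CPM, with 2 lower. None of these markers was at 0 in the keratinocyte gate of either library. The enzyme ratio within cycling cells alone was 0.528, and within basal cells alone 0.591. The part of the marker differences in the enzyme levels was not tested, in the whole gate or within its sub-gates.

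The keratinocytes of the 2 libraries overlapped in part when cells were clustered, and 6 of 13 keratinocyte clusters took over 90% of their cells from 1 library. The count of 12 lower genes in keratinocytes was 5 after each cell was thinned to 1000 UMIs and 3 at a 2-fold limit. Eno1 and Pkm were lower under each of the 17 other ways of counting, and Gapdh and Pgk1 under all but the 2-fold limit. UMIs were assigned by the submitters, and reads of near-identical copies can be split or lost. Eno1b, a near-identical copy of Eno1, had 15 UMIs in KO and 59 in WT over all kept cells. In summed UMIs, fewer transcripts per cell and a different mix of cells within a gate cannot be told apart.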

How the data were processed

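The 2 libraries were measured as UMI counts per gene and cell barcode. The deposited values are raw counts with no normalization, per the file headers and the values themselves. The submitters' processing notes list Cell Ranger 3.0.2, Seurat 3.0 and the mm10 build, and the matrix header gives version 3.1.0. No source says how cell barcodes were selected, and none of those deposited had under 500 UMIs.

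The members and lists were chosen with earlier results of these data known. Cells entered a gate with at least 2 markers, at least 3 marker UMIs and a marker share set per type, for example 30 per 10000 UMIs for keratinocytes and for fibroblasts, and 25 for monocytes and macrophages. Cells passing more than 1 gate (520 in KO and 1262 in WT) were left out as possible doublets, and no doublet caller was run. Cells passing no gate numbered 1123 in KO and 927 in WT. Cells whose marker share lay within 25% of the gate numbered 335 in KO and 481 in WT for keratinocytes, 350 and 824 for fibroblasts, and 106 and 530 for monocytes and macrophages.

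UMIs were summed per gate and library and scaled to the gate's total. Intervals of levels are exact Poisson intervals, those of ratios are exact and conditional on the summed count, and those of shares are Clopper-Pearson intervals. The precision follows the totals, 75096553 UMIs in KO and 105555922 in WT for keratinocytes, and 5131961 and 7840917 for monocytes and macrophages. Values were named by rule: members called in the 3 largest gates, the 3 largest ratios each way in other gates, and from each list the most abundant gene and the largest called ratio each way. Further members were named to account for the pathway. The calculations used Python 3.11.15, NumPy 2.4.6 and SciPy 1.17.1, and clusters came from leidenalg 0.10.2. To take the name of a gate, a cluster needed at least 70% of its gated cells to pass it. The interval and call were tested on simulated counts. Gene positions come from the GENCODE vM21 annotation of GRCm38.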

Additional observations from a re-analysis of the deposited data

Results flagged for a closer look

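In 3 genes, gates of the same libraries were called in opposite directions for KO over WT. The difference between gates was not tested in any of them.

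Pgk1 was lower in KO keratinocytes (ratio 0.517) and higher in KO vascular endothelial cells (ratio 1.58, on 343 UMIs in KO and 124 in WT). Slc16a3 was lower in KO keratinocytes (ratio 0.249) and in KO monocytes and macrophages (ratio 0.448), and higher in KO fibroblasts (ratio 1.78). Adm was higher in KO monocytes and macrophages (ratio 1.83) and lower in KO lymphatic endothelial cells (ratio 0.345), on 60 to 80 UMIs per library in each gate.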

How the results depend on the processing

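Of the 23 single-gene ratios called in the 3 largest gates, 2 came out on the other side of 1 under some setting. Eno2 in keratinocytes had a ratio of 1.07 with cells thinned to 1000 UMIs and 1.01 in suprabasal cells alone, and Ldhb in fibroblasts 1.45 with free RNA subtracted. The cause was not tested. In keratinocytes the count of lower genes was 5 with thinning, 3 at a 2-fold limit and 6 in suprabasal cells alone, against 12. The count of higher genes was 0 at a 2-fold limit, and 2 in cells of at least 5000 UMIs, without the follicle and sebaceous gate, and in the basal, suprabasal or cycling gate alone, against 1. In fibroblasts the 2-fold limit left 0 lower and 0 higher genes, against 2 and 3, and subtracting free RNA gave 5 higher. In monocytes and macrophages the count of lower genes was 4 with each cell weighing the same and 1 at a 2-fold limit, against 2. The count of higher genes there was 5 with at most 5% mitochondrial UMIs, 6 with each cell weighing the same, 0 with thinning, 0 at a 2-fold limit, 5 with free RNA subtracted and 5 without the deepest 10% of cells, against 3. The other alternatives left these counts within 1.5 times. Thinning left out 290 KO and 1824 WT keratinocytes. The median log2 ratio in keratinocytes stayed below 0 throughout, from -0.32 to -0.16. Scaling by the median ratio of all genes moved log2 ratios by 0.05 in keratinocytes and 0.10 in fibroblasts. The cells of at least 5000 UMIs and the gate without follicle cells were chosen after seeing the data. No paired analysis was possible because each genotype has 1 library, and leaving out a replicate was not possible for the same reason. Genes under 20 UMIs in a gate cannot be read at this depth.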
